A study of Mus musculus with 37 samples.

Results

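The genes described here are 44 interferon-stimulated genes, chosen by name with earlier results of these data known. Their expression was measured in whole mouse mammary glands after irradiation. Of the 44, 41 had a probe set annotated with their symbol alone among 18820 named genes, and 40 of these passed the filter on low values among 13174 genes tested. Ifi44 was not listed in the annotation, Gbp6 shared its probe sets with Gbp10 and Gbp11, Parp9 shared its with Dtx3l, and Isg15 had a probe set whose mean of 4.02 lay just under the filter at log2 4.04. Oas3, with a mean of 4.11, lay just inside it.

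Female BALB/c mice had the inguinal mammary gland of one side removed when young, and the intact gland of the other side gave the RNA in every group. At 10 weeks of age they received sham irradiation, 100 cGy of gamma rays, or 10 cGy or 30 cGy of Si ions at 350 MeV/amu, and glands were taken 1, 4 or 12 weeks later. Gamma rays ionise sparsely along their path and Si ions densely. The 37 Affymetrix arrays, 1 per sample, fell into 12 groups of 3, except sham at week 4 with 4. Mice of week 1 were dissected at the irradiation site, and the others following their return journey, so week and place cannot be told apart. The labels number the replicates and say nothing of animals or pools, and the p-values rest on the spread among arrays of a group, which may in part be technical.

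Interferons of type I bind a receptor made of Ifnar1 and Ifnar2, whose kinases phosphorylate Stat2. Stat2 and Irf9 belong to the ISGF3 complex, which binds the interferon-stimulated response element (ISRE) in promoters of antiviral genes, while interferon gamma acts mainly at the gamma-activated site (GAS). The products bind or destroy viral RNA, sense nucleic acids in the cytoplasm, attach the ubiquitin-like protein ISG15 to other proteins, or process antigens, and several of them belong to the pathway itself. In the mammary gland, epithelium, stroma, fat and resident immune cells can all express them.

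RefSeq promoters (build GRCm38.p6) were read for 250 bases before each gene's start, and 33 of the 44 genes were in that table. The ISRE motif, searched as GAAA, any 2 bases and GAAA on both strands with overlapping matches counted (TTTC, any 2 bases and TTTC where it lies on the other strand), occurred in 12 of the 33 (36.4%) and in 3.46% of all 27025 genes. The GAS motif TTCNNNGAA, which reads the same on both strands, occurred in 8 of the 33 (24.2%) and in 8.13% of all genes. Bst2 and Gbp7 held both. The 6 promoters below have an ISRE match and belong to the genes selected for values by array, in order of the moderated t for 30 cGy Si against sham at week 12 (Oas3, which also has a match, was outside that selection), and the capitals mark the ISRE matches:
Gbp3, chr3:142559794-142560043, plus strand: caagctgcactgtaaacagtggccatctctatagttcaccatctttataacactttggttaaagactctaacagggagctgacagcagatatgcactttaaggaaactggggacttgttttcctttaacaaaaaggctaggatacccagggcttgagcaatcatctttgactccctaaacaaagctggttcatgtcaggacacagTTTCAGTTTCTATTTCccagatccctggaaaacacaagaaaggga
Stat2, chr10:128270248-128270497, plus strand: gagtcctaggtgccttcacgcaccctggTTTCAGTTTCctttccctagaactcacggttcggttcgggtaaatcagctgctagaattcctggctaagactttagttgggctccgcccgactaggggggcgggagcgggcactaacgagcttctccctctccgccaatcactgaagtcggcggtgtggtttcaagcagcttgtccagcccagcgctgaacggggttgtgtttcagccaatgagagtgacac
Ifit1, chr19:34640639-34640888, plus strand: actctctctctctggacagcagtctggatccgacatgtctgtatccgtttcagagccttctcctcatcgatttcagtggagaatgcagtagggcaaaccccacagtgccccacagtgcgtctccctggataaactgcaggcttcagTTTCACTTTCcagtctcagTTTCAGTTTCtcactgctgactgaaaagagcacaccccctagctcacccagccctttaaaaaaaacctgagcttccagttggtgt
Ifit3, chr19:34583279-34583528, plus strand: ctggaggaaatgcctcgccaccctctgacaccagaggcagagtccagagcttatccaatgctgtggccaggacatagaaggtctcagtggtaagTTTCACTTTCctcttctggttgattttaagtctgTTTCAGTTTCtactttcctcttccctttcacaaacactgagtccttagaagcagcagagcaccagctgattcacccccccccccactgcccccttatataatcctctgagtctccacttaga
Ddx60, chr8:61927837-61928086, plus strand: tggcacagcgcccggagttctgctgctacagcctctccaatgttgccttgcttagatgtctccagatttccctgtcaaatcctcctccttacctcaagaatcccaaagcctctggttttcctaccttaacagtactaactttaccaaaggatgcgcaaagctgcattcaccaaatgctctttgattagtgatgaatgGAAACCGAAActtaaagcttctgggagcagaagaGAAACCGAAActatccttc
Rsad2, chr12:26456453-26456702, minus strand: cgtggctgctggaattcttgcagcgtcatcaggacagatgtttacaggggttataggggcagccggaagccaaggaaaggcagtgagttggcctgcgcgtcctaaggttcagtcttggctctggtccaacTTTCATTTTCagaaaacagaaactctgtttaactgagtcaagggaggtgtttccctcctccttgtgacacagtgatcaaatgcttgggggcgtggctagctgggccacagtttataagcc
The matches began 45 and 39 bases before the start in Gbp3, where they overlap, 222 before it in Stat2, 104 and 85 in Ifit1, 156 and 122 in Ifit3, 53 and 19 in Ddx60 and 120 in Rsad2. The second RefSeq window of Gbp3 held no match. A match is a description of these letters and says nothing of binding.

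The deposited log2 values had array medians from 5.04 to 5.25, and the arrays correlated at 0.949 or more with one another. Mammary markers were high on every array: the luminal keratin Krt8 lay between 9.65 and 11.6 and the adipocyte hormone Adipoq had a mean of 11.4. Other tissues varied strongly between arrays, with the T cell gene Cd3e between 4.42 and 10.2, the B cell gene Cd79a between 1.97 and 9.93 and the muscle actin Acta1 between 5.09 and 11.8. In whole tissue, fewer cells of a type and less RNA per cell cannot be told apart.

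Across the 12 groups, 30 cGy Si at week 12 stood at the top. Earlier results of these same data had shown the list higher there than in sham, so the counts describe that pattern and are no independent test. Of the 40 genes tested, 27 had their highest group mean there, against 10.1% of all genes, and 34 had it among their top 3. Ifit3 had the widest range of group means, from 5.76 in sham at week 1 to 8.01 in 30 cGy Si at week 12, and its spread within groups was 0.49 (pooled SD). Ifit1 followed with a range of 1.59 and Rsad2 with 1.39. In sham of week 1, 11 genes had their lowest mean (12.8% of all genes), and in 10 cGy Si of that week 9 did (8.49%). Gamma at week 12 was low as well, with 20 genes among their lowest 3 groups and 5 at their lowest (6.14% of all genes).

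**Figure D1:**
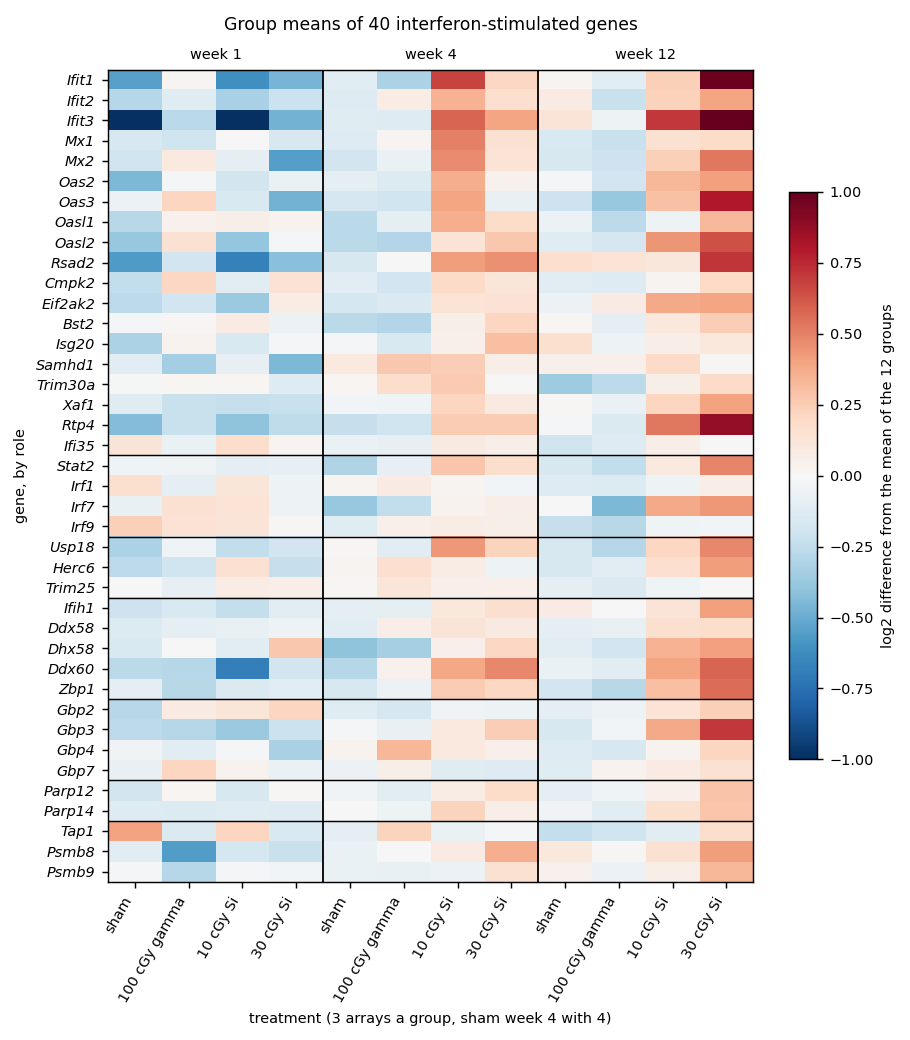
Group means of the 40 genes (vertical axis, by role) in the 12 groups (horizontal axis, treatment within week), as the log2 difference from the mean of the 12 groups, with colours limited to 1 log2 unit either way. The column of 30 cGy Si at week 12 is the reddest, with the highest mean of 27 genes.

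At week 12 the genes lay above sham as a group after 30 cGy Si, and no gene passed the test. The limma model called 0 of the 40 at an adjusted p under 0.05, as it called 0% of all 13174 genes. The difference to sham was above 0 for 38 of the 40, against 51.5% of all genes, with a median of 0.39 against 0.01. An unadjusted p under 0.05 was reached by 18 genes, all higher than sham, where 2.84% of all genes were higher at that p. For 17 genes every 30 cGy Si array lay above every sham array (3.83% of all genes), and for 0 every array lay below (3.39%). In simulated data of this comparison, over all 13174 genes, the test recovered 50% of genes changed 1.5-fold and 87.3% of those changed 2-fold. The simulation changed 200 genes, some of them 4-fold, with noise independent between genes, whereas the real comparison called 0. Its setting eases the adjustment, so the shares may exceed recovery in the real data. These shares do not describe the 40 genes, for which recovery was not tested. The spread of the 40 within groups (pooled SD) ran from 0.14 in Ifi35 to 0.53 in Oas3.

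**Figure D2:**
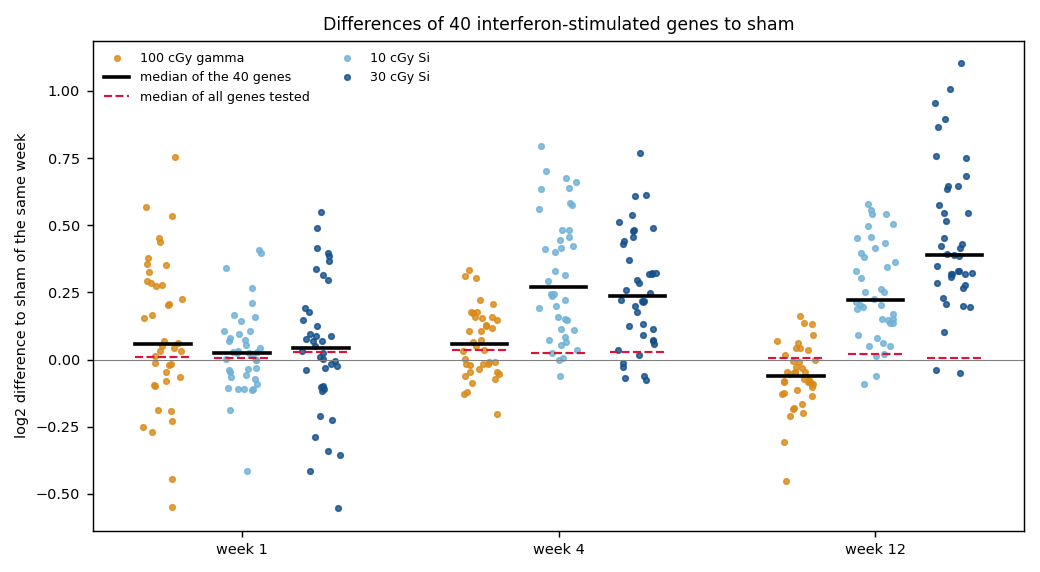
Log2 difference to sham of the same week (vertical axis) for each of the 40 genes (points) in the 9 irradiated groups (horizontal axis), with the median of the 40 (black bars) and of all genes tested (dashed red). Medians reach 0.39 in 30 cGy Si at week 12 and 0.27 in 10 cGy Si at week 4, and the gamma groups stay between -0.06 and 0.06.

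Among the transcription factors, Stat2, the ISGF3 subunit that carries the activating domain, was the most separated. Its 30 cGy Si arrays read 7.76, 7.56 and 7.57, and its sham arrays 7.07, 6.83 and 7.06, so every irradiated array lay well above every sham array. The difference was 0.64 ± 0.16 (SE), with an adjusted p of 0.559. Irf7, which drives the interferon alpha genes, read 8.13, 7.30 and 7.39 after 30 cGy Si and 6.85, 7.38 and 7.29 in sham, and the groups overlapped. Irf9, the DNA-binding subunit of ISGF3, read 7.60, 7.12 and 7.53 against 7.12, 7.19 and 7.32, again with overlap. Irf1, the early interferon gamma target, differed by 0.20 ± 0.18.

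The antiviral effectors were the largest class, and 17 of its 19 genes lay above sham, with a median of 0.42. Ifit1, which binds RNA that lacks the host's cap methylation, read 7.03, 5.998 and 6.71 after 30 cGy Si and 5.24, 5.44 and 6.19 in sham. Ifit3, its partner protein, read 8.59, 7.52 and 7.93 against 6.21, 6.95 and 7.57. In both genes the highest sham array lay within the range of the irradiated ones. Rtp4, a chaperone with an RNA-binding zinc finger, read 8.39, 8.08 and 8.35 after 30 cGy Si and 7.15, 6.98 and 7.998 in sham, with no overlap. Its difference was 0.89 ± 0.25 (adjusted p = 0.854).

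Rsad2, or viperin, the enzyme that makes a chain-terminating nucleotide, was also separated, at 7.04, 6.43 and 6.65 against 5.83, 6.27 and 6.38 in sham. Its difference was 0.55 ± 0.23. Eif2ak2, the kinase PKR that halts translation, read 6.86, 6.59 and 6.81 against 6.23, 6.03 and 6.65, where replicate 3 of sham overlapped. Oas3 and Oasl2 belong to the family of oligoadenylate synthetases, whose catalytic members switch on RNase L. Oas3 read 5.48, 4.70 and 4.56 against 3.13, 4.26 and 4.32, a difference of 1.01 ± 0.41, and Oasl2 read 9.02, 8.21 and 8.23 against 7.22, 7.86 and 8.10, a difference of 0.76 ± 0.30. Neither overlapped, and Oas3 is one of the dimmest genes tested.

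Other effectors differed less or overlapped. Xaf1, a proapoptotic factor, read 7.44, 7.13 and 7.37 against 6.57, 6.94 and 7.25, with overlap. Samhd1, which depletes the building blocks of DNA, read 9.99, 9.88 and 9.62 against 9.71, 10.09 and 9.79. It and the exonuclease gene Isg20 were the 2 genes below 0, at -0.04 ± 0.20 and -0.05 ± 0.16. Ifit2 differed by 0.32 ± 0.20 and Mx1, a GTPase that blocks viral replication, by 0.33 ± 0.28.

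All 5 sensors of foreign nucleic acid lay above sham, with a median of 0.52, and 4 of them had an unadjusted p under 0.05. Ifih1 (MDA5), which binds long viral RNA, read 8.62, 8.07 and 8.12 after 30 cGy Si and 7.93, 7.93 and 7.96 in sham, whose arrays lay close together. Dhx58 (LGP2), which assists it, read 6.82, 6.25 and 6.12 against 5.51, 6.03 and 6.10. The helicase gene Ddx60 read 7.30, 7.03 and 6.80 against 6.21, 6.26 and 6.74. None of these 3 overlapped, with differences of 0.33 ± 0.12, 0.52 ± 0.22 and 0.65 ± 0.27. Zbp1, the sensor of Z-form nucleic acid, differed by 0.75 ± 0.34 and did not overlap either. Ddx58 (RIG-I) differed by 0.27 ± 0.14 and did overlap.

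Guanylate-binding proteins are GTPases that coat the vacuoles of pathogens, and Gbp3 had the smallest p of all 40 genes. It read 7.60, 7.20 and 7.55 after 30 cGy Si and 6.39, 6.30 and 7.05 in sham, with no overlap, and differed by 0.87 ± 0.19 (adjusted p = 0.437). Gbp2 read 7.73, 7.54 and 7.88 against 7.03, 7.31 and 7.85, and Gbp4 read 7.73, 7.80 and 7.72 against 7.29, 7.43 and 7.49. Of these Gbp4 was separated and Gbp2 overlapped. The ADP-ribosyltransferases Parp12 and Parp14 were both separated, Parp12 narrowly, at 8.51, 8.24 and 8.57 against 8.01, 7.91 and 8.24 and at 7.94, 8.02 and 7.95 against 7.42, 7.79 and 7.79.

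In the ISG15 system, Herc6, the main ligase of ISG15 in mice, read 7.85, 7.37 and 7.46 after 30 cGy Si and 6.74, 6.78 and 7.44 in sham. Usp18, the protease that removes ISG15 and damps the receptor, read 8.58, 7.76 and 8.07 against 6.85, 7.68 and 7.98. Both overlapped, and so did Trim25, the ligase that activates RIG-I, at 7.79, 7.54 and 7.66 against 7.52, 7.69 and 7.46. The 3 genes of antigen processing lay above sham by 0.29 to 0.42. Tap1, the peptide transporter, read 7.60, 7.56 and 7.94 against 7.12, 7.32 and 7.42 without overlap, and the immunoproteasome subunits Psmb8 and Psmb9 read 7.43, 7.45 and 8.01 against 7.23, 7.13 and 7.57 and 7.92, 7.83 and 8.40 against 7.72, 7.70 and 7.87, with overlap.

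The sham group itself was wide. Replicate 3 was above the other sham arrays in 32 of the 40 genes (37.2% of all genes). Replicate 1 was below them in 27, a position not counted over all genes. On the irradiated side, replicate 1 of 30 cGy Si lay above the sham mean in 40 of 40 genes (59.1% of all genes). Replicate 2 did so in 34 (45.1%) and replicate 3 in 37 (50.3%). Without sham replicate 3 the median difference was 0.51, and Gbp3 and Rtp4 were called, at adjusted p-values of 0.0172 and 0.0384, beside 0.235% of all genes. Without sham replicate 1 the median was 0.30, and with any other array left out it lay between 0.34 and 0.49. Across the settings that kept all arrays it lay between 0.39 and 0.42.

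Markers of other cells differed too, and their part in the result was not tested. The T and NK cell list lay above sham in 1 of 18 genes (median -0.61) and the B cell list in 0 of 14 (median -0.68), with summed log2 levels of the B list between 64.2 and 78.3 after 30 cGy Si and between 59.3 and 95.6 in sham. For the T and NK list the sums were 89.8 to 98.4 and 86.7 to 115.2. Sham replicates 1, 2 and 3 had mean B levels of 4.24, 6.45 and 6.83, in the order of their levels of the 40 genes. The 30 cGy Si replicates 1, 2 and 3 had 5.60, 4.59 and 5.06. These too followed the order of the 40 genes, whose median deviations were 0.55, 0.22 and 0.33. Of the macrophage list, 8 of 15 lay above sham (median 0.02), with sums of 118.7 to 122.8 against 116.0 to 125.3. Plasmacytoid dendritic cells, known as strong makers of interferon, had sums of 38.9 to 41.8 against 39.3 to 45.7 over 7 markers without Bst2. Of the 7 tested, Bst2 among them, 3 lay above sham (median -0.05). The lowest value of any probe set was 0.82, so a marker's level does not show whether its cell type was absent. With the 4 tissue covariates in the fit (lymphocyte, muscle, epithelial and brown fat genes), the median difference was 0.42.

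**Figure D3:**
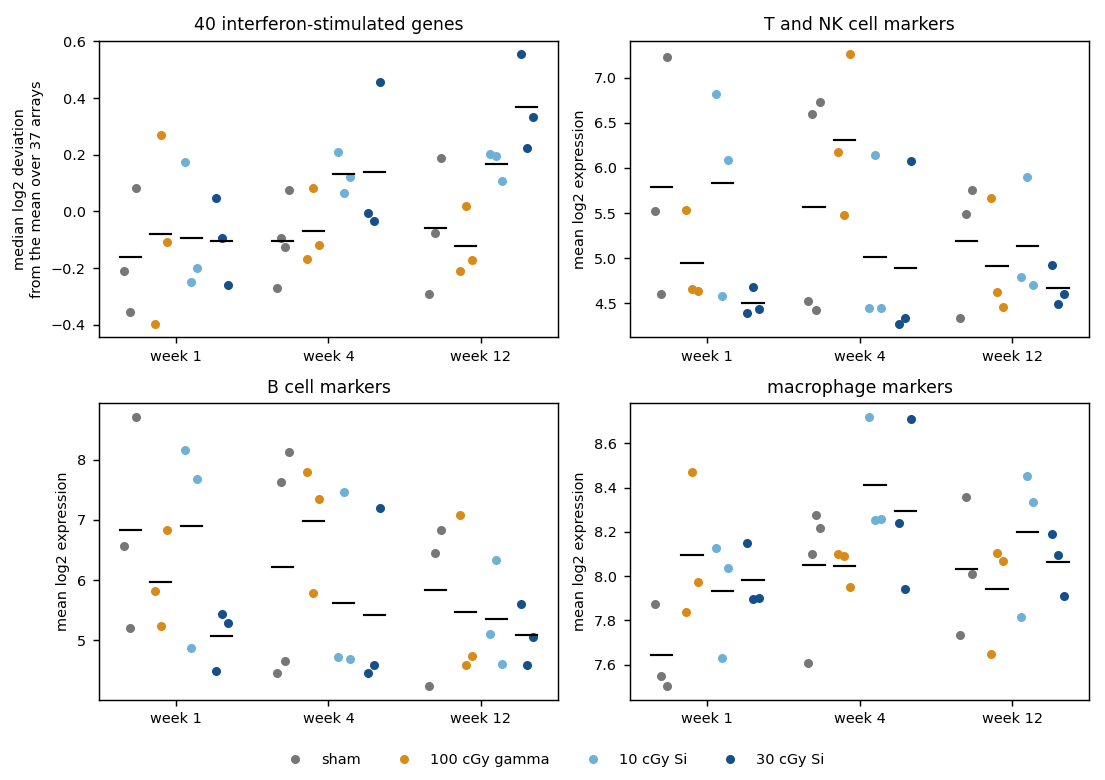
Median log2 deviation of the 40 genes from their means over 37 arrays, and mean log2 level of the T and NK, B and macrophage marker lists (vertical axes), for each array (points) and group (bars) by week (horizontal axes). The 30 cGy Si arrays of week 12 lie at 0.22 to 0.55 for the 40 genes and between 4.59 and 5.60 for the B list.

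The comparison of 30 cGy Si with 100 cGy gamma sets the radiation types side by side, and at week 12 it needs no sham array. Dose and radiation type both differ and cannot be told apart. In limma 0 of 40 genes were called (0% of all genes), but 39 of 40 lay higher after 30 cGy Si, against 48.4% of all genes, with a median of 0.43. An unadjusted p under 0.05 was reached by 25 genes, all higher, where 2.41% of all genes were higher at that p. For 29 genes all 3 Si arrays lay above all 3 gamma arrays, against 5.14% of all genes. The median stayed between 0.40 and 0.59 whichever array was left out.

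Stat2 led this comparison as well. Its gamma arrays read 6.89, 6.94 and 6.86, all below every Si array, and the difference was 0.73 ± 0.16 (adjusted p = 0.503). Rtp4 read 6.79, 7.62 and 7.33 after gamma, a difference of 1.02 ± 0.25 (adjusted p = 0.633). Gbp3 read 6.56, 7.05 and 6.54, a difference of 0.73 ± 0.19. Among the effectors, Ifit1 at 5.09, 5.94 and 5.44 and Ifit3 at 6.40, 7.13 and 6.64 did not overlap with 30 cGy Si.

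The gamma arrays of Irf7 read 6.47, 7.21 and 6.49, all below 30 cGy Si, which lay 0.88 ± 0.26 above them in the mean. Ifit2 read 5.80, 6.03 and 5.99 after gamma and Ifih1 7.87, 7.89 and 7.83, and these were the 2 genes whose gamma arrays all lay below all sham arrays of that week (2.21% of all genes). Against sham, gamma gave a median of -0.06 at week 12, with 10 of 40 genes above 0, against 52.2% of all genes. No gene had an unadjusted p under 0.05, where 2.82% of all genes did, and limma called 0 (0% of all genes). Leaving out sham replicate 1 gave a median of -0.14 and leaving out replicate 3 gave 0.07.

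The muscle markers stood apart here, with sums of 63.4 to 118.7 over 12 genes after gamma and 67.0 to 81.2 after 30 cGy Si. All 12 lay lower after Si, with a median of -1.38, and their part in the result was not tested. With the tissue covariates the median of the 40 genes was 0.50. B cell markers lay lower after Si in 14 of 14 genes, with a median of -0.40.

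Group means at week 12 mostly followed one order. In 37 of 40 genes the mean was highest after 30 cGy Si, lower after 10 cGy Si and lowest after 100 cGy gamma, an order seen in 16.8% of all genes. At week 4 it was seen in 13 genes (21.0% of all genes) and at week 1 in 3 (19.5%). Between the Si doses at week 12, 38 of 40 genes lay higher after 30 cGy, with a median of 0.18, and 7 did not overlap (4.75% of all genes). With limma 0 were called (0% of all genes), and 4 genes were higher at an unadjusted p under 0.05 against 2.03% of all genes: Rsad2, Stat2, Ifit1 and Ifih1.

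Rsad2 read 6.11, 5.94 and 6.25 after 10 cGy Si, below every 30 cGy array and within the sham range, and the doses differed by 0.61 ± 0.23. Stat2 read 7.25, 7.26 and 7.21, above every sham array and below every 30 cGy array, with 0.39 ± 0.16 between the doses. Ifit1 read 5.82, 5.98 and 5.71 and differed by 0.74 ± 0.31. In contrast, Eif2ak2 read 6.92, 6.83 and 6.46 after 10 cGy Si, overlapping with the higher dose, and Irf7 read 7.37, 7.75 and 7.55. The difference in Eif2ak2 between the doses was 0.02 ± 0.15.

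After 10 cGy Si at week 12, 38 of 40 genes lay above sham, against 55.1% of all genes, with a median of 0.22. None passed limma's test (0 of 40, and 0% of all genes), 5 genes were higher at an unadjusted p under 0.05 (2.52% of all genes) and 5 did not overlap with sham (5% of all genes). Eif2ak2 had the smallest p of the 40, with a difference of 0.44 ± 0.15. Gbp3 at 7.29, 7.08 and 6.999 differed by 0.54 ± 0.19 and Rtp4 at 8.11, 7.88 and 7.76 by 0.54 ± 0.25, with overlap in both. This comparison uses the sham arrays of the previous ones, and its median was 0.10 when sham replicate 1 was left out and 0.32 when replicate 3 was.

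**Figure D4:**
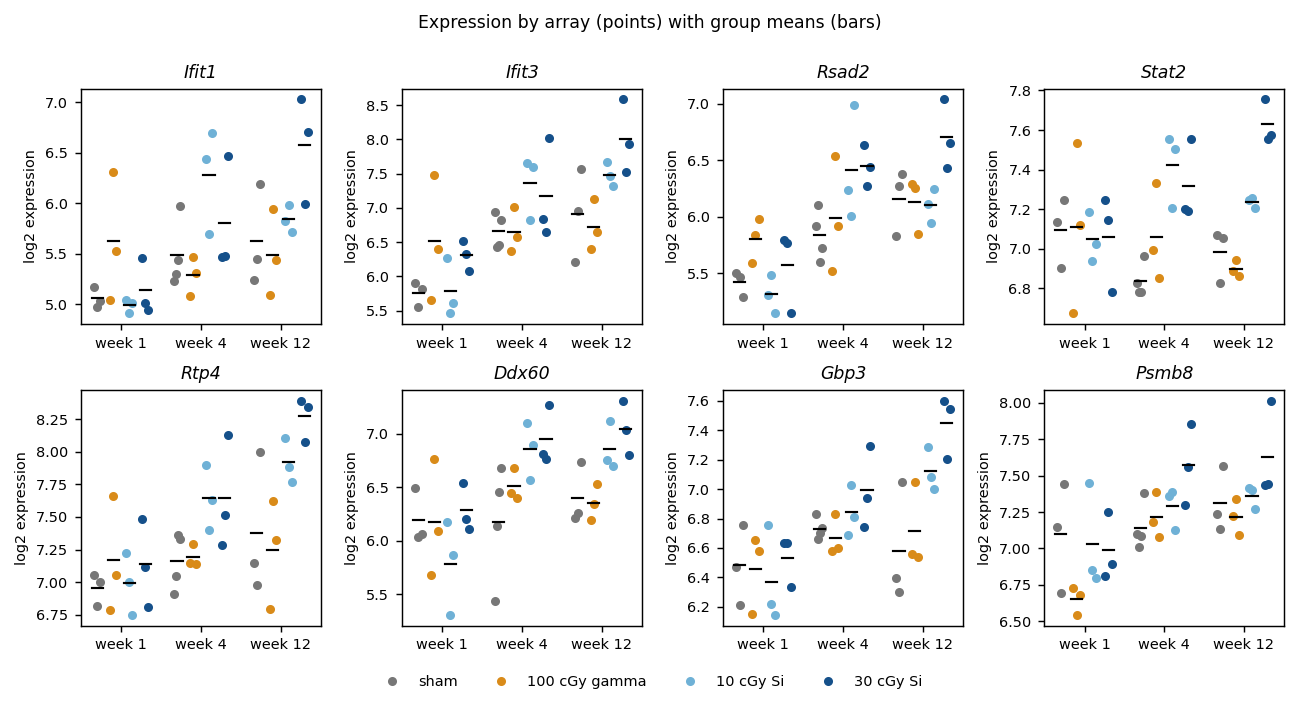
Log2 expression (vertical axes) of 8 genes on each of the 37 arrays (points, by treatment) with group means (bars), by week (horizontal axes). Stat2, Rtp4 and Gbp3 show all 3 arrays of 30 cGy Si at week 12 above every sham array, and Ifit3 shows sham arrays at 5.55 to 5.90 at week 1 and at 6.21 to 7.57 at week 12.

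After 10 cGy Si at week 4, 38 of 40 genes lay above sham, all 3 arrays contributing (34, 40 and 33 genes above the sham mean). Of all genes 56.8% lay above, and the median of the 40 was 0.27. Again limma called 0 (0% of all genes), 12 genes were higher at an unadjusted p under 0.05 (2.4% of all genes), and 8 did not overlap with the 4 sham arrays (2.24% of all genes). All 19 effectors were above 0 (median 0.45), while the 3 genes of antigen processing differed by 0.01 to 0.15. Leaving out any array kept the median between 0.24 and 0.35.

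Stat2 again had the smallest p: it read 7.55, 7.21 and 7.50 after 10 cGy Si and 6.83, 6.78, 6.78 and 6.96 in sham, without overlap, a difference of 0.58 ± 0.15 (adjusted p = 0.9998). Ifit1 read 6.44, 5.70 and 6.70 against 5.23, 5.30, 5.44 and 5.97, and Ifit2 read 6.30, 6.73 and 6.53 against 5.84, 6.09, 6.06 and 6.16, where only Ifit2 was separated. Ddx60 read 7.10, 6.57 and 6.89 against 5.43, 6.14, 6.45 and 6.68, with overlap, and differed by 0.68 ± 0.25. Rsad2, at 6.23, 6.01 and 6.99 against 5.92, 6.10, 5.60 and 5.72, differed by 0.58 ± 0.22.

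After 30 cGy Si at week 4 the median was 0.24, with 35 of 40 genes above sham (56.7% of all genes). Here limma called 0 (0% of all genes), 10 genes were higher at an unadjusted p under 0.05 (6.1% of all genes) and 5 did not overlap (6.19%). Replicate 3 stood apart: it lay above the sham mean in 40 of 40 genes (54.1% of all genes), by a median of 0.61. Replicates 1 and 2 did so in 25 each (61.5% and 54.2% of all genes), by 0.06 and 0.09. Without replicate 3 the median was 0.07. In Ifit3 the arrays read 6.84, 6.65 and 8.02, in Ifit1 5.47, 5.47 and 6.47 and in Rtp4 7.28, 7.52 and 8.13.

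Bst2 (tetherin), Stat2, Ddx60, Dhx58 and Rsad2 had the smallest p-values there. Stat2 read 7.20, 7.19 and 7.55 and Ddx60 6.81, 6.76 and 7.26, all above every sham array. Rsad2 read 6.64, 6.27 and 6.44, even across the replicates, and lay 0.61 ± 0.22 above sham. Psmb8 read 7.30, 7.56 and 7.86 against 7.10, 7.01, 7.09 and 7.38 and differed by 0.43 ± 0.17. Against 100 cGy gamma of that week the median was 0.23, with 32 of 40 genes higher and 8 not overlapping (8.75% of all genes), and it was 0.03 without replicate 3. In that comparison limma called 0 of the 40 (0.00759% of all genes), and 4 genes were higher at an unadjusted p under 0.05 (3.95%).

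Gamma at week 4 gave a median of 0.06, with 24 of 40 genes above sham against 58.0% of all genes. It was -0.04 without gamma replicate 2 and 0.13 without gamma replicate 1. By limma 0 were called (0% of all genes), 0 genes had an unadjusted p under 0.05 (5.56% of all genes), and 0 were separated from sham (2.55% of all genes lay above and 1.37% below). Macrophage markers were higher after Si at this week: 15 of 15 lay above sham after 10 cGy Si (median 0.34) and 13 of 15 after 30 cGy Si (median 0.29). Their sums ran from 123.8 to 130.8 after 10 cGy Si, 119.1 to 130.6 after 30 cGy Si and 114.1 to 124.1 in sham. In the same order, B cell sums ran from 65.6 to 104.4, 62.4 to 100.7 and 62.5 to 113.8, and the part of either list in the result was not tested. With the tissue covariates, which held no macrophage genes, the medians were 0.30 after 10 cGy Si and 0.29 after 30 cGy Si.

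At week 1 the genes lay on both sides of sham. Medians against sham were 0.06 after gamma, 0.04 after 30 cGy Si and 0.03 after 10 cGy Si, with 25, 24 and 23 of 40 genes above 0. Leaving out 1 array moved them between -0.11 (without gamma replicate 2) and 0.23 (without gamma replicate 1), between -0.07 and 0.15 (without sham replicates 2 and 3), and between -0.10 (without 10 cGy Si replicate 1) and 0.11 (without sham replicate 3), so none kept its sign. The limma model called 0 of the 40 in each, beside 0.0228%, 0.0228% and 0.0835% of all genes. An unadjusted p under 0.05 was reached by 3 of the 40 after gamma, in either direction (7.82% of all genes), and by 2 and 1, both times higher, after 30 cGy and 10 cGy Si (8.5% and 3.58%). After gamma, Rsad2 and Cmpk2 lay above every sham array (8.77% of all genes) and Ifi35 and Tap1 below (5.52%). After 30 cGy Si, 4 genes lay above (14.5% of all genes) and Tap1 below (6.13%), and after 10 cGy Si 0 did either (7.92% and 3.86%).

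Single arrays of week 1 differed widely. Replicate 2 of gamma was above every sham array in 22 of 40 genes (28.6% of all genes). Replicate 1 was below every sham array in 17, a position not counted over all genes. It lay above the sham mean in 8 of the 40 (46.1% of all genes). Ifit1 read 5.04, 6.31 and 5.53 after gamma against 5.17, 4.97 and 5.03 in sham, and Ifit3 5.66, 7.48 and 6.39 against 5.90, 5.55 and 5.82. Psmb8 was the gene with the smallest p after gamma, at 6.73, 6.54 and 6.68 against 7.15, 6.69 and 7.45, a difference of -0.44 ± 0.19. Gbp2 had the smallest after 30 cGy Si, at 7.61, 8.01 and 7.48 against 7.07, 7.04 and 7.51, a difference of 0.49 ± 0.18 (adjusted p = 0.324). With array weights Gbp2 was called (adjusted p = 0.0311), among 3.11% of all genes. Between 30 cGy Si and gamma of week 1 the median was -0.03, and limma called 0 (0% of all genes), with 1 gene under an unadjusted p of 0.05 (4.43%). The Si doses differed by a median of 0.01 at week 1, with 0 called (0.0531%) and 1 gene higher at an unadjusted p under 0.05 (3.73%), and by -0.03 at week 4, with 0 called (0.0152%) and 0 at that p (3.51%).

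Over the 3 weeks together, the mean difference to sham had a median of 0.23 after 30 cGy Si, 0.20 after 10 cGy Si and 0.03 after gamma. Limma called 0 of the 40 in each, beside 0.0304%, 0% and 0% of all genes. An unadjusted p under 0.05 was reached by 18 genes after 30 cGy Si, all higher (10.2% of all genes), by 13 after 10 cGy Si, all higher (5.14%), and by 0 after gamma in either direction (5.36%). Eif2ak2 had the smallest p after 30 cGy Si, with a difference of 0.37 ± 0.09 (adjusted p = 0.123), followed by Dhx58 with 0.51 ± 0.12 and Stat2 with 0.36 ± 0.09. Without sham replicate 3 of week 12, 8 genes were called, beside 2.32% of all genes, and with array weights 7, beside 2.19%. Stat2 also led after 10 cGy Si, with 0.26 ± 0.09.

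The change of the 30 cGy Si effect between weeks was tested directly. The difference to sham was larger at week 12 than at week 1 by a median of 0.40, with 37 of 40 genes above 0 against 46.1% of all genes, and limma called 0 (0% of all genes). For 6 genes it was larger at an unadjusted p under 0.05 (1.12% of all genes). For Stat2 the effects differed by 0.68 ± 0.22, with an adjusted p of 0.999, and for Gbp3 by 0.82 ± 0.27. Between weeks 4 and 12 the median was 0.17, with 2 genes larger at an unadjusted p under 0.05 (1.59% of all genes) and 0 called (0%). Between weeks 1 and 4 it was 0.21, with 3 such genes (4.16%) and 0 called (0%).

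Between the weeks, with all 4 treatments averaged, members did pass the test. From week 1 to week 12, 13 of the 40 genes rose and 1 fell, where 35.5% of all genes were called in either direction. From week 1 to week 4, 11 rose and 0 fell (25.8% of all genes called), and from week 4 to week 12 limma called 0 (1.64%), with 5 genes under an unadjusted p of 0.05 (15.9% of all genes). Counted in either direction, the share of the 40 called was near that of all genes in each comparison. The directions differed. Of all 13174 genes, 1449 rose and 1944 fell from week 1 to week 4, and 1998 rose and 2681 fell from week 1 to week 12. More of all genes thus fell than rose, while the called genes of the 40 almost all rose.

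Over the 12 arrays of week 1, Ifit3 ran from 5.46 to 7.48 (median 5.99), over the 13 of week 4 from 6.37 to 8.02 (median 6.83) and over the 12 of week 12 from 6.21 to 8.59 (median 7.39). Ifit3 rose by 1.19 ± 0.19 from week 1 to week 12 (adjusted p = 1.64e-05). Its sham arrays read 5.90, 5.55 and 5.82 at week 1, 6.94, 6.42, 6.46 and 6.82 at week 4 and 6.21, 6.95 and 7.57 at week 12, and its 10 cGy Si arrays 6.27, 5.46 and 5.61 and then 7.66, 6.83 and 7.60 and 7.67, 7.47 and 7.32. Rsad2 rose by 0.75 ± 0.12 (adjusted p = 1.34e-05), with sham arrays at 5.51, 5.47 and 5.29, 5.92, 6.10, 5.60 and 5.72 and 5.83, 6.27 and 6.38. In both genes the sham arrays of week 1 lay below all those of weeks 4 and 12.

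The immunoproteasome gene Psmb8 ran from 6.54 to 7.45 (median 6.83) at week 1 and from 7.09 to 8.01 (median 7.37) at week 12, and rose by 0.44 ± 0.09. Eif2ak2 ran from 5.86 to 6.59 (median 6.12) and from 6.03 to 6.92 (median 6.59), and rose by 0.39 ± 0.08. The sensor Ifih1 ran from 7.43 to 7.91 (median 7.65) and from 7.83 to 8.62 (median 7.95), and rose by 0.33 ± 0.06. In all 3 the weeks overlapped in range while the medians were apart. Rtp4 rose by 0.64 ± 0.12, Gbp3 by 0.51 ± 0.10, Ifit1 by 0.68 ± 0.16 and Ddx60 by 0.56 ± 0.13. Samhd1, which did not separate Si from sham, ran from 9.21 to 10.11 (median 9.54) at week 1 and from 9.62 to 10.15 (median 9.90) at week 12, and rose by 0.32 ± 0.10, and by 0.41 ± 0.10 up to week 4. Xaf1, Ifit2 and Parp14 rose by 0.34 ± 0.08, 0.36 ± 0.10 and 0.20 ± 0.07. Parp14 lost its call in 11 of the other settings.

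The 11 genes that rose by week 4 all rose by week 12 as well. Rsad2 rose by 0.64 ± 0.12 and Ifit3 by 0.87 ± 0.19, followed by Ddx60 and Ifit1 with 0.51 ± 0.13 and 0.51 ± 0.15. Psmb8, Gbp3, Ifit2 and Rtp4 rose by 0.36 ± 0.09, 0.35 ± 0.10, 0.35 ± 0.10 and 0.35 ± 0.12, and Xaf1 and Ifih1 by 0.26 ± 0.08 and 0.20 ± 0.06. These comparisons share the week 1 arrays. Rtp4 lost its call at week 4 in 13 other settings, and Ifit1 with the tissue covariates (adjusted p = 0.0505).

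Irf9 was the gene that fell, with a difference of -0.27 ± 0.08 (adjusted p = 0.012). Its sham arrays read 7.40, 7.81 and 7.84 at week 1 and 7.12, 7.19 and 7.32 at week 12, and its gamma arrays 7.30, 8.04 and 7.41 and 7.16, 7.24 and 7.10. The adjusted p was 0.0706 with the tissue covariates. Stat2 differed between these weeks by 0.11 ± 0.08. Muscle markers lay lower at week 12 in 11 of 12 genes, with a median of -1.45, and B cell markers in 14 of 14, with a median of -0.73, while 12 of 15 macrophage markers lay higher, with a median of 0.17. Their part in the week differences was not tested beyond the fit with covariates, which held no macrophage genes.

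The rest of the pathway was measured in 95 further genes tested. Of 12 interferon genes with a probe set, Ifnl2 alone passed the filter, with -0.20 ± 0.21 for 30 cGy Si against sham at week 12. Ifnb1, the interferon beta gene, had a mean of 2.45 and Ifng, the interferon gamma gene, 3.98, both below the filter. Over the same comparison 4 of 9 receptor and kinase genes lay above 0 (median -0.01), with Ifnar1 at -0.01 ± 0.11 and Ifnar2 at 0.12 ± 0.09. Other STAT and IRF genes gave 3 of 6 (median -0.02), sensing adaptors 4 of 12 (median -0.08) and brakes such as Socs1 and Socs3 2 of 8 (median -0.07). In these groups 0 genes had an unadjusted p under 0.05, and limma called 0.

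Further interferon targets lay mostly above sham as well. Of 43 tested, 37 lay above sham (51.5% of all genes), with a median of 0.19. At an unadjusted p under 0.05, 4 were higher (2.84% of all genes) and 1 was lower (2.44%), and limma called 0 (0%). Ube2l6, the conjugating enzyme of ISG15, differed by 0.69 ± 0.18, Slfn5 by 0.45 ± 0.13, and the GTPase Iigp1 by 0.90 ± 0.29. The lower gene, named after its value was seen, was Ifitm1, which blocks viral entry, at -0.58 ± 0.21. MHC class I genes gave 10 of 10 above 0 (median 0.17), with Tapbp at 0.28 ± 0.11 and Tap2 at 0.43 ± 0.18. MHC class II genes gave 1 of 6 (median -0.15).

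At week 12 the genes with an ISRE match in their promoter had a median difference of 0.64 to sham after 30 cGy Si (11 genes tested), and those without one 0.32 (20 genes). The 9 tested genes with no promoter in the table had 0.52. The ranges overlapped, from 0.23 to 1.10 with a match and from -0.05 to 0.76 without. After 10 cGy Si the medians were 0.25 with a match, 0.15 without one and 0.36 for the genes with no promoter in the table. After gamma they were -0.05, -0.05 and -0.08. These medians describe the genes as grouped by their letters, with no test.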

How the data were processed

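Total RNA from 37 glands was amplified, labelled and hybridised to Affymetrix whole-transcript arrays, per the labels' protocols. The authors deposited log2 expression values per probe set, which the submitters' processing notes tie to RMA and to oligo without a version. RMA corrects background, forces the arrays to a common distribution and summarises probes, so shifts shared by all genes cannot be seen. The 35556 probe sets were named from the platform annotation: 21218 had 1 symbol, 1881 several, and 12457 lacked an entry. Only those with 1 symbol were used, and the probe set with the highest mean stood for each of 18820 genes. Genes with a mean above the 30th percentile (log2 4.04) were tested.

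Group means were fitted over all 37 arrays (12 groups, 25 residual degrees of freedom) with limma 3.58.1 in R 4.3.3, with Benjamini-Hochberg adjustment over 13174 genes within each of 24 contrasts, and genes were called at an adjusted p under 0.05. All p-values are two-sided. Errors of differences are standard errors. The fit was tested on simulated data with 200 changed genes.

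The members and gene lists were chosen with earlier results of these data known. Values by array were given for members called in any contrast, for up to 3 per role with the largest moderated t for 30 cGy Si against sham at week 12, and for the 3 with the widest range of group means, in the groups being compared. Promoters were printed for up to 6 of these with an ISRE match. Other members, among them Oas3 and Oasl2 with values by array, were named after their values were seen. Of the other pathway genes, up to 3 per list with the smallest p could be named, with the receptor genes Ifnar1 and Ifnar2, Ifnb1 and Ifng always, while Ifitm1 and the examples Socs1 and Socs3 were outside that rule. Replicate numbers were not treated as pairs in the main fit: correlations of same-numbered arrays ran from -0.46 to 0.65. At week 1 their median was 0.20, against -0.14 for arrays with different numbers. At weeks 4 and 12 the medians were 0.01 and -0.05, against 0.01 and 0.04. The fit was repeated unfiltered, with the 50th percentile as filter, with all of a gene's probe sets averaged, with quantile normalisation, median centring, a trended and robust variance, array weights, a replicate block, the compared groups alone or 4 tissue covariates, and without each array in turn. Leaving out together the sham arrays least like the rest was chosen after seeing the data.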

Additional observations from a re-analysis of the deposited data

Results flagged for a closer look

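Trim25, the ligase that activates RIG-I, read 7.37 in replicate 1 of sham at week 4, while the other sham arrays of that week read between 7.76 and 7.80. This array stood far from the others in 1 of 40 such tests, and chance alone would single out about 1 group in 20.

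Tap1, the peptide transporter of antigen processing, differed from sham in opposite directions after 30 cGy Si. At week 1 every 30 cGy array (7.40, 7.41 and 7.30) lay below every sham array (7.85, 7.59 and 8.34), a difference of -0.55 ± 0.27, and at week 12 every one lay above, by 0.42 ± 0.27. The sham mean of Tap1 was itself the highest of the 12 groups at week 1 (7.93) and the lowest at week 12 (7.28). The difference between the weeks' effects was 0.97 ± 0.38 (limma adjusted p = 0.999), so it did not pass the test over all genes.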

How the results depend on the processing

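No result changed direction past its threshold under any alternative. For 30 cGy Si against sham, array weights called 1 of the 40 genes at week 1 (Gbp2) and 7 over the 3 weeks. Leaving out replicate 3 of sham at week 12 called 2 at week 12 and 8 over the 3 weeks, so with each array left out in turn the counts ran from 0 to 2 and from 0 to 8. The median of 30 cGy Si against gamma at week 4 ran from 0.0297, without replicate 3 of 30 cGy Si, to 0.341. Between the weeks, 10 to 16 of the genes were called for week 4 against week 1 (16.6% to 36.6% of all genes) and 13 to 19 for week 12 against week 1 (23.8% to 44% of all genes). Single calls between weeks were lost in some settings: Parp14 in 11, Rtp4 (week 4 against week 1) in 13, and Ifit1 (week 4) and Irf9 with the tissue covariates. The replicate block, whose numbers the labels do not call pairs, gave a median of 0.39 for 30 cGy Si at week 12. In that fit limma called 10 and 14 genes between week 1 and weeks 4 and 12. Rtp4, week 4 minus week 1, lost its call there (adjusted p = 0.0609). With 3 arrays a group, their number limits the precision. Differences of genes near the background, such as Oas3, may be compressed, which was not tested.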

Other observations

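Probe sets of these genes outside the tests gave further values at week 12. Isg15, the ubiquitin-like modifier itself, read 4.60 ± 0.53 (SD, n = 3) after 30 cGy Si and 3.91 ± 0.31 in sham, near the level of background, and the groups overlapped. The probe set shared by Gbp6, Gbp10 and Gbp11 read 8.77 ± 0.29 and 8.12 ± 0.30, from 8.45 to 9.02 and from 7.89 to 8.46, with a small overlap. The one shared by Gbp6 and Gbp11 read 7.74 ± 0.46 and 7.13 ± 0.15. Those shared by Parp9 and Dtx3l read 7.96 against 7.82 and 7.51 against 7.54. The dimmer probe set of Irf1 read 4.14 in both groups. Genes that share a probe set cannot be told apart there, and none of these values was tested.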
